A study of Mus musculus with 75 samples.

Results

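The expression of 10 endothelial genes was followed in mouse liver, from the 55536 genes of the deposited count table. Genes were taken by symbol from a list drawn up with earlier results of these data known. The set held 5 genes of the liver's sinusoidal endothelium (Stab2, Lyve1, Clec4g, Oit3 and Fcgr2b), 3 genes of capillary or continuous endothelium (Cd34, Vwf and Plvap) and a pair of general endothelial genes, Pecam1 and Kdr. All 10 passed the filter on low counts in every comparison.

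The livers came from C57Bl/6 mice labelled as male. Exposed mice were offspring of dams given tributyltin (TBT), an organotin compound, in their water at 0.5 mg/kg per day (3.07 µM), and exposure ended at weaning, whereas controls received vehicle. At 3 weeks there were 7 vehicle and 8 TBT samples. At 5 months there were 8 vehicle samples, 16 TBT samples labelled low-risk and 10 TBT samples labelled high-risk. At 10 months there were 6 vehicle and 5 low-risk TBT samples, 5 samples of uninvolved liver from high-risk TBT mice and 7 tumors of such mice. How the risk label was given at 5 months is not stated, so whether it rested on these expression values is unknown. One more library, of a vehicle mouse but with a tumor label, was left out of all comparisons. Bulk RNA was extracted from liver, so fewer endothelial cells and less RNA of a gene per endothelial cell cannot be told apart in any result here. The labels do not state that each sample was a separate animal, and p-values measure only the spread between these samples.

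The vessels of the liver lobule, the sinusoids, are lined by an endothelium with open pores and almost no basement membrane, which lets plasma reach the hepatocytes. These cells take up waste from the blood through scavenger receptors such as stabilin-2. In chronic liver disease and in liver tumors sinusoids can lose their pores, gain a basement membrane and take on markers of ordinary capillaries, a process known as capillarization.

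Sequencing depth was 2.83 to 45.4 M counts per library, and 6 libraries stood apart by a low total, many genes detected or a high mitochondrial share. The TBT library 4 of 3 weeks, labelled male, held 348 CPM (counts per M counts) of Xist, against at most 84.6 CPM in any other library. The tissue label was borne out by 4 hepatocyte genes that summed to 49900 normalized CPM or more in every sample compared. Levels are CPM scaled by the trimmed mean of M-values (TMM), and are called normalized CPM.

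Of the 10 genes, 5 had a promoter in the RefSeq table of GRCm38.p6, and 3 of these are shown. They are Clec4g, a C-type lectin of the sinusoidal surface, Kdr, the main receptor for VEGF-A, and Cd34, a sialomucin of capillary endothelium. With the high-risk label at 5 months Clec4g and Kdr fell and Cd34 rose. Stab2 and Fcgr2b, whose windows are not shown, fell too. Each window holds the 250 bases before the annotated start, written 5′ to 3′ on the gene's strand. Capitals mark matches to GGAA, the core of ETS factor sites, or to CACCC, the core of KLF factor sites, on either strand. The windows were chr8:3720652-3720901 on the minus strand for Clec4g, chr5:75978456-75978705 on the minus strand for Kdr and chr1:194938571-194938820 on the plus strand for Cd34.
Clec4g: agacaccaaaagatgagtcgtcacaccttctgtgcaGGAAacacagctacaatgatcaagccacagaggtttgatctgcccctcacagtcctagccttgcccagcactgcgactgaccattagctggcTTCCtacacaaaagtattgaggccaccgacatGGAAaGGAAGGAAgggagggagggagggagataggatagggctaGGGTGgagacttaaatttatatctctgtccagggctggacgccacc
Kdr: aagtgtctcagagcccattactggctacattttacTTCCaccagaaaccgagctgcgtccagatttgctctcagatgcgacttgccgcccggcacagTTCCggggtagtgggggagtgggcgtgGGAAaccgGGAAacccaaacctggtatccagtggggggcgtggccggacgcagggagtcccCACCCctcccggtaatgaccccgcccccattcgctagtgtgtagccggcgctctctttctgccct
Cd34: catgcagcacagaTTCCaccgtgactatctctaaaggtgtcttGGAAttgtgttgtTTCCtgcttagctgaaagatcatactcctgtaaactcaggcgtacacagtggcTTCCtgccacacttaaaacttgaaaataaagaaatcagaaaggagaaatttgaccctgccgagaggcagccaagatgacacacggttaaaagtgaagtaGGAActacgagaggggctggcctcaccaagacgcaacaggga
GGAA or its reverse complement TTCC occurred 5 times in the Clec4g window, 4 times in that of Kdr and 5 times in that of Cd34, and 93.4% of 32851 promoter windows of this length held a match, with a median of 3. CACCC or GGGTG occurred 1 time each for Clec4g and Kdr and 0 times for Cd34, against 52.0% of windows with a match. The GATA site AGATAA or TTATCT was in none of the 3, and 10.0% of windows held it. In the windows not shown, CACCC or GGGTG occurred 0 times for Stab2 and 2 times for Fcgr2b.

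In the GENCODE M21 annotation of GRCm38, Stab2 lies at chr10:86841198-87008025, Lyve1 at chr7:110850607-110863239, Clec4g at chr8:3707064-3720651, Oit3 at chr10:59422958-59441778 and Fcgr2b at chr1:170958617-170976547. Pecam1 lies at chr11:106654217-106750628, Kdr at chr5:75932827-75978458, Cd34 at chr1:194938819-194961279, Vwf at chr6:125546774-125686679 and Plvap at chr8:71497765-71511752. Plvap overlaps Gtpbp3 on the opposite strand, and Stab2, Clec4g, Fcgr2b and Cd34 overlap predicted genes of the opposite strand. The strand setting of the counting is not given in the sources used here, so reads of overlapping partners cannot be told apart.

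Levels between genes were compared per kb of exon. In 3-week vehicle livers Plvap, which forms the diaphragms of endothelial pores, was highest at 27.3 ± 2.26 normalized CPM per kb (SD, n = 7). Clec4g at 23.4 ± 5.14, Stab2 at 22.9 ± 3.35 and Oit3, a secreted sinusoidal protein, at 22.4 ± 1.38 lay within a spread of each other. Kdr followed at 12.9 ± 1.15 and Lyve1, a hyaluronan receptor, at 11.9 ± 1.95. Fcgr2b, an inhibitory Fc receptor that clears immune complexes, lay at 7.56 ± 1.5 and Pecam1, a junction protein of all endothelium, at 7.25 ± 0.889. Vwf, the clotting factor carrier stored in endothelium, was low at 1.49 ± 0.311, and Cd34 was lowest at 0.686 ± 0.251 normalized CPM per kb. Plvap, which the rule counts as a capillary gene, was thus within a spread of Clec4g and above Lyve1 and Fcgr2b in 3-week liver.

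Whether exposure alone moved these genes at weaning age was asked at 3 weeks. None of the 10 differed between TBT and vehicle livers by edgeR's quasi-likelihood test with Benjamini-Hochberg adjustment, where 0.0% of 14050 genes were called. Vwf alone had an unadjusted p under 0.05. Its level was 19.6 to 40.3 normalized CPM in TBT livers (median 29.7) and 18.2 to 31.9 in vehicles (median 23.6), with a log2 difference of 0.37 (SE 0.16, adjusted p = 0.999). The groups overlapped for every member, DESeq2 also called 0 of the 10, and so did edgeR without TBT library 4. Over all genes 474 had an unadjusted p under 0.05 with edgeR, and DESeq2 called 2. The log2 differences of the other 9 genes lay between -0.14 for Clec4g and 0.38 for Cd34.

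The risk groups of 5 months had the same exposure and are taken first. Of the sinusoidal genes 4 fell, Lyve1 and the capillary genes Cd34 and Vwf rose, and Kdr fell, whereas Pecam1 and Plvap did not pass the test. That made 3 genes higher and 5 lower of 10, against 38.9% of 14773 genes called in either direction (20.3% higher and 18.5% lower). The median log2 difference of the 10 was -0.28, and that of all genes -0.01. The plot of member levels by group shows each sample.

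**Figure D1:**
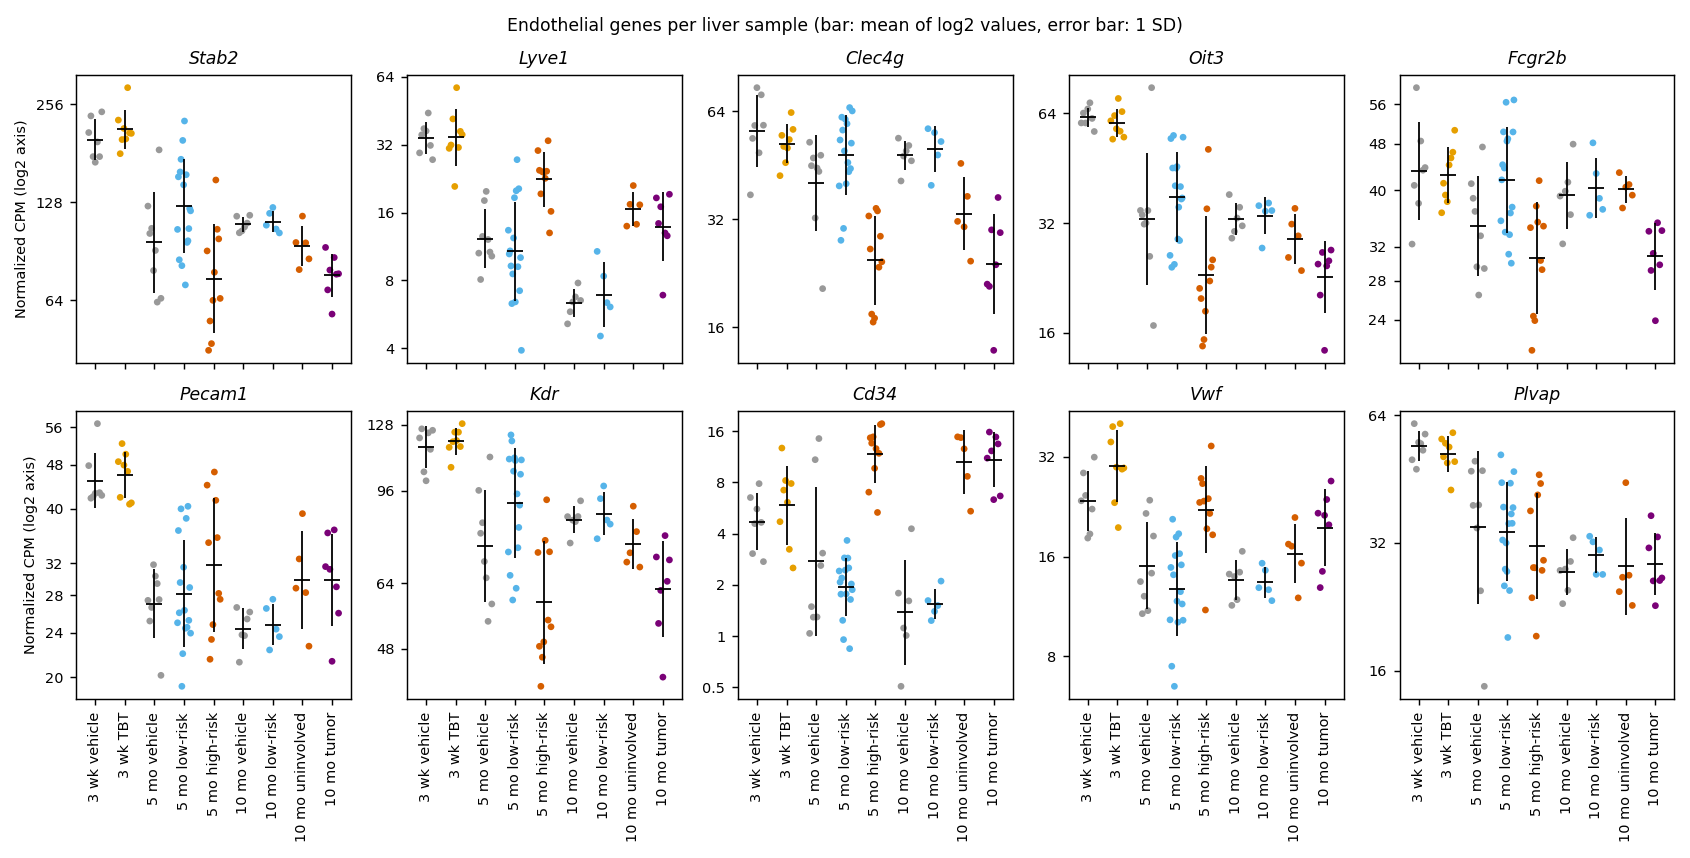
Normalized CPM (log axis) of each of the 10 genes in every sample, by group, with a point per sample, a bar at the mean of the log2 values and error bars of 1 SD of them. Cd34 lay between 5.33 and 17.7 in 5-month high-risk livers, above all low-risk livers of that age, while Pecam1 and Plvap of these groups overlapped.

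Clec4g showed the strongest fall among the sinusoidal genes. It measured 16.5 to 34.3 normalized CPM in high-risk livers (median 25.4) and 27.95 to 65.5 in low-risk livers (median 50.9). The ranges overlapped, and 6 of 10 high-risk livers lay below every low-risk liver. Its log2 difference was -0.96 (SE 0.14, adjusted p = 2.05e-06). Stab2, which encodes the scavenger receptor stabilin-2, ran from 44.95 to 149.7 in high-risk livers (median 71.4) and from 71.4 to 227.1 in low-risk livers (median 121.4). The log2 difference of -0.70 (SE 0.18, adjusted p = 0.00191) came with 5 of 10 high-risk livers below every low-risk one. Oit3 lay between 14.7 and 50.97 (median 21.7) against 24.2 to 55.7 (median 38.9), a log2 difference of -0.66 (SE 0.17, adjusted p = 0.00231). Fcgr2b had the smallest difference of the 5, from 42.4 ± 8.79 (SD, n = 16) in low-risk to 31.3 ± 6.57 normalized CPM (SD, n = 10) in high-risk livers. This gave a log2 difference of -0.43 (SE 0.12, adjusted p = 0.00444). Fcgr2b is also carried by B cells and macrophages. The 5 B cell markers summed to 3.29 to 13.7 normalized CPM in high-risk and 1.48 to 9.63 in low-risk livers. Of these 5, 0 were called, where 38.9% of all genes were. The part of B cells and macrophages in the Fcgr2b difference was not tested.

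Lyve1 moved against the other sinusoidal genes. In the adult liver it marks sinusoids but also lymphatic vessels and some macrophages. It ran from 13 to 33.4 normalized CPM in high-risk livers (median 24.2) and from 3.91 to 27.5 in low-risk livers (median 10.3). Its log2 difference was 0.93 (SE 0.22, adjusted p = 0.0011), and 2 of 10 high-risk livers exceeded every low-risk liver. The lymphatic genes Pdpn, Ccl21a and Mmrn1 summed to 2.28 to 13.2 normalized CPM in high-risk and 0.946 to 4.55 in low-risk livers. Of these, Pdpn and Mmrn1 passed the filter and rose, by 1.35 and 1.22 on the log2 scale. The 10 macrophage markers summed to 319 to 821 and 358 to 821 normalized CPM in the same groups, with 5 of them higher and 1 lower. Of these, Lyz2 rose by 1.21 and Cd68 by 0.90, and Clec4f, a Kupffer cell lectin, fell by 0.91. Among all genes tested, 20.3% were higher and 18.5% lower. No gene of either list was at 0 in every sample. The part of lymphatic vessels and macrophages in the Lyve1 difference was not tested.

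Cd34 separated the risk groups completely. In low-risk livers it measured 0.845 to 3.65 normalized CPM (median 2.05), and in high-risk livers 5.33 to 17.7 (median 13.1). All 10 high-risk livers lay above all 16 low-risk livers. The share of all genes without overlap between groups was not counted, in this or any other comparison. The log2 difference was 2.60 (SE 0.33, adjusted p = 4.34e-07), a 6.06-fold higher level. Deposited counts of Cd34 ran from 6 to 84 per low-risk library and from 77 to 919 per high-risk library. The low level thus rests on few counts in some libraries. Per the file name these counts had been adjusted between batches, so they are not numbers of reads. Vwf was 11.03 to 34.5 in high-risk livers (median 23.4) and 6.49 to 20.7 in low-risk livers (median 13.3). Its log2 difference was 0.78 (SE 0.17, adjusted p = 0.000401), and 7 of 10 high-risk livers exceeded every low-risk one. Plvap, the third capillary gene, overlapped fully at 32.6 ± 9.24 (SD, n = 10) and 35.2 ± 8.98 normalized CPM (SD, n = 16), with a log2 difference of -0.12 (SE 0.16, adjusted p = 0.557).

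Cd34 is also carried by fibroblasts and by blood-forming progenitors, and Vwf by megakaryocytes. The 7 stellate cell and fibroblast markers summed to 514 to 1340 normalized CPM in high-risk and 306 to 637 in low-risk livers, and 5 of them rose, among them Col1a1 by 2.97 and Col3a1 by 2.33 on the log2 scale. Lrat, which stores vitamin A in quiescent stellate cells, fell by 0.65. Among all genes tested, 20.3% were higher and 18.5% lower. The 5 proliferation markers summed to 27.6 to 238 against 6.02 to 40.3, and the 5 megakaryocyte and platelet markers to 3.86 to 9.61 against 3.11 to 14. Pf4 rose by 1.12 on the log2 scale and the other 3 tested genes of that list did not pass. No marker was at 0 in every sample, and the part of these cells in the Cd34 and Vwf differences was not tested.

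The general endothelial genes split. Kdr fell from 59.4 to 122.5 normalized CPM in low-risk livers (median 98.9) to 40.7 to 92.2 in high-risk livers (median 53.6). Its log2 difference was -0.61 (SE 0.13, adjusted p = 0.000291), and 6 of 10 high-risk livers lay below every low-risk liver. Pecam1 was 32.8 ± 9.01 (SD, n = 10) and 28.9 ± 6.63 (SD, n = 16), and its difference of 0.18 (SE 0.12, adjusted p = 0.26) did not pass. A list of 15 other general endothelial genes gave 1 higher and 4 lower, with a median of -0.10, where 38.9% of all genes were called.

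Both sequencing batches held high-risk and low-risk livers. Within batch 2, with 7 high-risk and 10 low-risk livers, the same 8 genes were called, against 32.3% of all genes. Within batch 1, with 3 and 6, where 4.69% of genes were called, only Cd34 passed, at a log2 difference of 3.20 (SE 0.71, adjusted p = 0.0184). The differences in batch 1 and batch 2 were -0.90 and -0.99 for Clec4g, -0.36 and -0.87 for Stab2, -0.49 and -0.74 for Oit3 and -0.18 and -0.55 for Fcgr2b. They were 0.71 and 1.01 for Lyve1, 0.90 and 0.72 for Vwf and -0.42 and -0.70 for Kdr. Pecam1 at -0.01 and 0.27 and Plvap at -0.50 and 0.06 changed sign between batches and passed in neither.

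**Figure D2:**
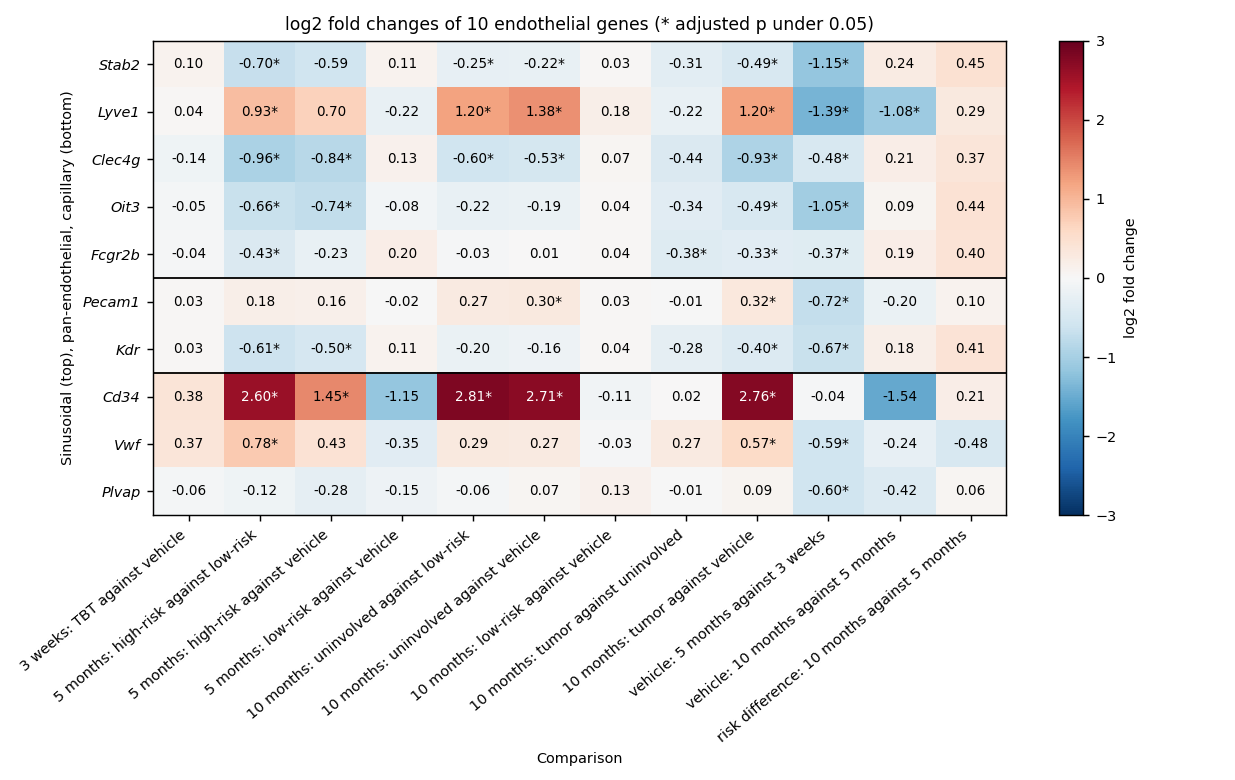
Log2 differences of the 10 genes (rows) in each comparison (columns), printed in each cell and coloured from blue (lower) to red (higher), with an asterisk for an adjusted p under 0.05. Cd34 is deep red at 2.60 in 5-month high-risk and at 2.81 in uninvolved against low-risk livers, while Clec4g is blue at -0.96 and -0.60.

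High-risk livers of 5 months were then set against vehicle livers, a comparison that shares its high-risk samples with the one above. Of the 10 genes 1 rose and 3 fell, against 15.8% of genes called (8.47% higher and 7.38% lower). Clec4g fell by 0.84 (SE 0.18, adjusted p = 0.00168), Oit3 by 0.74 (SE 0.21, adjusted p = 0.0145) and Kdr by 0.50 (SE 0.16, adjusted p = 0.0317). Cd34 rose by 1.45 (SE 0.44, adjusted p = 0.0216). Cd34 in the vehicles was 1.04, 1.49, 1.29, 10.9, 1.30, 14.5, 2.60 and 3.07 normalized CPM, so vehicles 4 and 6 lay within the high-risk range and the others below it. Vwf in the same pair of vehicles was 21.6 and 23.7 normalized CPM, above the other 6, which reached 18.5. In a fit of these groups alone only Clec4g passed, and Cd34 had a log2 difference of 1.77 (adjusted p = 0.0611). Within batch 1, with 3 high-risk and 7 vehicle livers, none of the 10 passed, and neither did any of the 16465 genes tested. Over all alternative fits the Kdr call was lost in 6 and kept in 2. The Oit3 and Cd34 calls were each lost in 4 and kept in 4, and the Clec4g call was lost in 2 and kept in 6.

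Low-risk livers of 5 months did not differ from vehicles in any of the 10 genes by edgeR, with 0.0% of genes called. Cd34 alone had an unadjusted p under 0.05, at -1.15 (SE 0.42, adjusted p = 0.596). Over all genes 934 had an unadjusted p under 0.05, and DESeq2 called 52 genes, none of them a member. Differences of the other 9 genes ran from -0.35 for Vwf to 0.20 for Fcgr2b.

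At 10 months uninvolved high-risk liver was compared with low-risk liver, which asks whether tissue outside tumors carried the pattern. Cd34 and Lyve1 rose without overlap, Clec4g and Stab2 fell, and the other 6 genes did not pass. The 4 called genes of 10 stand against 52.4% of 16338 genes called (27.7% higher and 24.7% lower), so members were called no more often than genes in general. Their median difference was -0.04 against 0.05 for all genes.

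Cd34 was 1.24, 1.40, 1.51, 2.11 and 1.62 normalized CPM in the low-risk livers and 14.8, 12.6, 8.68, 5.42 and 14.6 in the uninvolved livers. Every uninvolved liver lay above every low-risk liver, at a log2 difference of 2.81 (SE 0.41, adjusted p = 4.39e-05). Lyve1 was 4.53, 8.36, 6.37, 6.10 and 10.8 in low-risk livers and 13.9, 21.1, 14.2, 17.3 and 17.4 in uninvolved livers. Its groups did not overlap either, and its log2 difference was 1.20 (SE 0.19, adjusted p = 6.57e-05). How many of all genes separated these groups was not counted, so the separation cannot be read as particular to Cd34 and Lyve1.

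Clec4g was 39.8, 55.8, 48.3, 52.7 and 57.2 normalized CPM in low-risk and 31.6, 30.5, 37.1, 24.5 and 45.8 in uninvolved livers. Of the uninvolved livers 4 of 5 lay below every low-risk liver, and the log2 difference was -0.60 (SE 0.14, adjusted p = 0.00178). Stab2 was 118.3, 123.3, 105.9, 103.0 and 108.8 in low-risk and 96.3, 116.0, 96.0, 85.8 and 79.5 in uninvolved livers. Its difference was small at -0.25 (SE 0.09, adjusted p = 0.0308), and the call was lost when low-risk liver 2 or 4, or uninvolved liver 1, 5, 7 or 12, was left out, with an adjusted p of 0.0514 to 0.081. Over all alternative fits the Stab2 call was lost in 8 and kept in 7. Without the summed sample of uninvolved livers 3 and 6, 7 genes were called, as Oit3, Kdr and Plvap passed as lower.

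The other 6 genes did not pass at 10 months. Kdr had a difference of -0.20 (adjusted p = 0.0592), Oit3 of -0.22 (adjusted p = 0.103), Pecam1 of 0.27 (adjusted p = 0.058) and Vwf of 0.29 (adjusted p = 0.0766). In the alternative fits Pecam1 passed in 7 and did not in 8. Kdr, Oit3 and Vwf each passed in 2 and did not in 13. Fcgr2b and Plvap lay near 0, at -0.03 and -0.06. The stellate cell and fibroblast markers summed to 586 to 757 normalized CPM in uninvolved and 373 to 535 in low-risk livers. Of these 7 markers 4 were higher and 1 lower, Lrat at -0.56, where 52.4% of all genes were called. The lymphatic markers summed to 2.66 to 5.70 against 1.55 to 2.56. Of the 10 macrophage markers 2 were higher and 5 lower, with Marco at -2.30, Clec4f at -1.20, Vsig4 at -0.85 and Lyz2 at 0.70. All 5 proliferation markers were higher and 3 of 4 hepatocyte markers lower. The part of these cells in the Cd34, Lyve1 and other differences was not tested.

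Against vehicles of 10 months, uninvolved liver had 3 genes higher and 2 lower, where 57.7% of genes were called (31.2% higher and 26.5% lower). Lyve1 rose by 1.38 (SE 0.18, adjusted p = 6.93e-06), Cd34 by 2.71 (SE 0.38, adjusted p = 2.15e-05) and Pecam1 by 0.30 (SE 0.11, adjusted p = 0.0297). Clec4g fell by 0.53 (SE 0.13, adjusted p = 0.0028) and Stab2 by 0.22 (SE 0.09, adjusted p = 0.042). The Pecam1 call was lost without the summed sample of livers 3 and 6, at 0.19 (adjusted p = 0.0921), and the Stab2 call without any of the other 4 uninvolved livers. Over all alternative fits the Stab2 call was lost in 8 and kept in 4. Low-risk livers did not differ from vehicles in any of the 10 genes with edgeR, where 0.0% were called, and DESeq2 called 1 gene, which was not a member. None of the 10 had an unadjusted p under 0.05, and 688 genes in all did.

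An interaction term asked whether the risk difference was of another size at 10 months than at 5 months. None of the 10 genes passed, against 0.448% of 16084 genes (0.18% higher and 0.267% lower), and none had an unadjusted p under 0.05. The nearest was Fcgr2b, whose difference was 0.40 higher at 10 months (SE 0.20, adjusted p = 0.414). For Cd34 the change was 0.21 (SE 0.36) and for Vwf -0.48 (SE 0.28), so the ages were not shown to differ, and standard errors of this size do not show that they were alike.

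Tumors were compared with uninvolved liver of high-risk mice. Fcgr2b alone passed as lower, against 18.1% of 16362 genes called (7.55% higher and 10.5% lower). It was 23.9 to 35.2 normalized CPM in tumors (median 31.2) and 42.8, 40.5, 40.9, 39.2 and 37.3 in uninvolved livers, without overlap. The log2 difference was -0.38 (SE 0.10, adjusted p = 0.0184). Tumors and uninvolved livers with the same number in their titles were taken as the same mouse. With mouse as a block the difference was -0.26 (adjusted p = 0.0749) over 4 pairs and -0.37 (adjusted p = 0.031) over 6 pairs that keep livers 3 and 6 apart. The call was also lost without uninvolved liver 1, at -0.34 (adjusted p = 0.0624). Of the 5 B cell markers 0 were called between tumors and uninvolved livers, and of the 10 macrophage markers 0. The part of these cells in the Fcgr2b difference was not tested.

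Of the remaining genes Clec4g at -0.44 (adjusted p = 0.144), Oit3 at -0.34 (adjusted p = 0.115), Stab2 at -0.31 (adjusted p = 0.0851) and Kdr at -0.28 (adjusted p = 0.155) did not pass. Cd34 was 11.5 ± 3.74 normalized CPM in tumors (SD, n = 7) and 11.2 ± 4.08 in uninvolved liver (SD, n = 5), a difference of 0.02 (SE 0.27). Plvap and Pecam1 each differed by -0.01.

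Against vehicle liver the tumors had 4 genes higher and 5 lower, and only Plvap did not pass, where 45.9% of 15293 genes were called (24.8% higher and 21% lower). Cd34 rose by 2.76 (SE 0.40, adjusted p = 0.000107), from 0.508 to 4.27 in vehicles (median 1.36) to 6.34 to 15.8 in tumors (median 12.2), without overlap. Clec4g was 13.8 to 36.8 in tumors (median 23.9) and 40.9 to 53.8 in vehicles (median 48.8), and fell by 0.93 (SE 0.17, adjusted p = 0.0005). Stab2 fell by 0.49 (SE 0.09, adjusted p = 0.00052) and Oit3 by 0.49 (SE 0.12, adjusted p = 0.00506), both without overlap. How many of all genes separated tumors from vehicles was not counted. Kdr fell by 0.40 (adjusted p = 0.0101) and Fcgr2b by 0.33 (adjusted p = 0.014). Lyve1 rose by 1.20 (adjusted p = 0.000222), Vwf by 0.57 (adjusted p = 0.00898) and Pecam1 by 0.32 (adjusted p = 0.0263). Of the 9 called genes, 8 had also been called at 5 months between the risk groups, in the same direction, and Pecam1 had not. At 5 months 38.9% of all genes were called. The share of all genes called in both comparisons was not counted, so this overlap cannot be read as particular to the members. In the same comparison 5 of 5 proliferation markers were higher and 4 of 4 hepatocyte markers lower. Of the macrophage markers 4 were higher and 2 lower, and of the stellate cell and fibroblast markers 3 were higher and 1 lower. Their part in these differences was not tested.

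Age was compared in unexposed livers of batch 1. From 3 weeks to 5 months 9 of the 10 genes fell and Cd34 did not pass, against 24.2% of 14962 genes called (11.9% higher and 12.3% lower). Lyve1 fell by 1.39 (SE 0.16, adjusted p = 1.66e-06), Stab2 by 1.15 (SE 0.12, adjusted p = 6.38e-07) and Oit3 by 1.05 (SE 0.09, adjusted p = 5.09e-08). Pecam1 fell by 0.72, Kdr by 0.67, Plvap by 0.60, Vwf by 0.59, Clec4g by 0.48 and Fcgr2b by 0.37, with adjusted p of 0.0346 or less. The list of 15 other general endothelial genes had 14 lower, and all 8 basement membrane genes were lower with a median of -1.34. The stellate cell and fibroblast markers summed to 875 to 1400 normalized CPM in 3-week vehicles and 129 to 691 in all 5-month vehicles, and the proliferation markers to 141 to 282 and 4.27 to 88.3. Their part in these differences was not tested.

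From 5 to 10 months Lyve1 alone fell, by 1.08 (SE 0.17, adjusted p = 0.000724), against 14.1% of genes called (6.68% higher and 7.41% lower). It was 8.07 to 19.9 normalized CPM in the 7 vehicles of 5 months in batch 1 and 5.13 to 7.79 in 10-month vehicles (median 6.47), without overlap. Cd34 had a difference of -1.54 (SE 0.62, adjusted p = 0.0978) and Plvap of -0.42 (SE 0.16, adjusted p = 0.0749). Over the 3 ages, Lyve1 in vehicles thus stood at 34.7 ± 5.69 (SD, n = 7), 13.1 ± 4.32 (SD, n = 7) and 6.40 ± 0.899 (SD, n = 6).

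The order of Cd34 levels over the 9 groups began with 10-month low-risk livers at 1.57 ± 0.329 normalized CPM (SD, n = 5), 10-month vehicles at 1.72 ± 1.33 (SD, n = 6) and 5-month low-risk livers at 2.07 ± 0.735 (SD, n = 16). Vehicles of 5 months at 4.52 ± 5.17 (SD, n = 8), vehicles of 3 weeks at 5.00 ± 1.83 (SD, n = 7) and TBT livers of 3 weeks at 6.57 ± 3.25 (SD, n = 8) followed. Uninvolved livers at 11.2 ± 4.08 (SD, n = 5), tumors at 11.5 ± 3.74 (SD, n = 7) and 5-month high-risk livers at 12.5 ± 4.12 (SD, n = 10) were highest. Neighbours in this order lay within a spread of each other, except 3-week TBT livers and uninvolved livers, whose means differed by more than either SD.

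The contrast between the sinusoidal and capillary genes was summarised per sample as the mean log2 CPM of the 5 sinusoidal genes minus that of the 3 capillary genes. It carries no test, since the members were chosen with results known. At 5 months it was 2.05 ± 0.30 (SD, n = 16) in low-risk and 0.62 ± 0.45 (SD, n = 10) in high-risk livers, with 10 of 10 high-risk livers below every low-risk liver. The difference of -1.43 was -1.40 within batch 1 and -1.45 within batch 2. The sinusoidal mean was 5.32 ± 0.25 in low-risk and 4.96 ± 0.33 in high-risk livers, and the capillary mean 3.27 ± 0.32 and 4.34 ± 0.27. With Cd34 left out the difference was -0.70. Vehicles of 5 months spread widely, from 0.61 in vehicle 6 and 0.74 in vehicle 4 to 2.15.

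**Figure D3:**
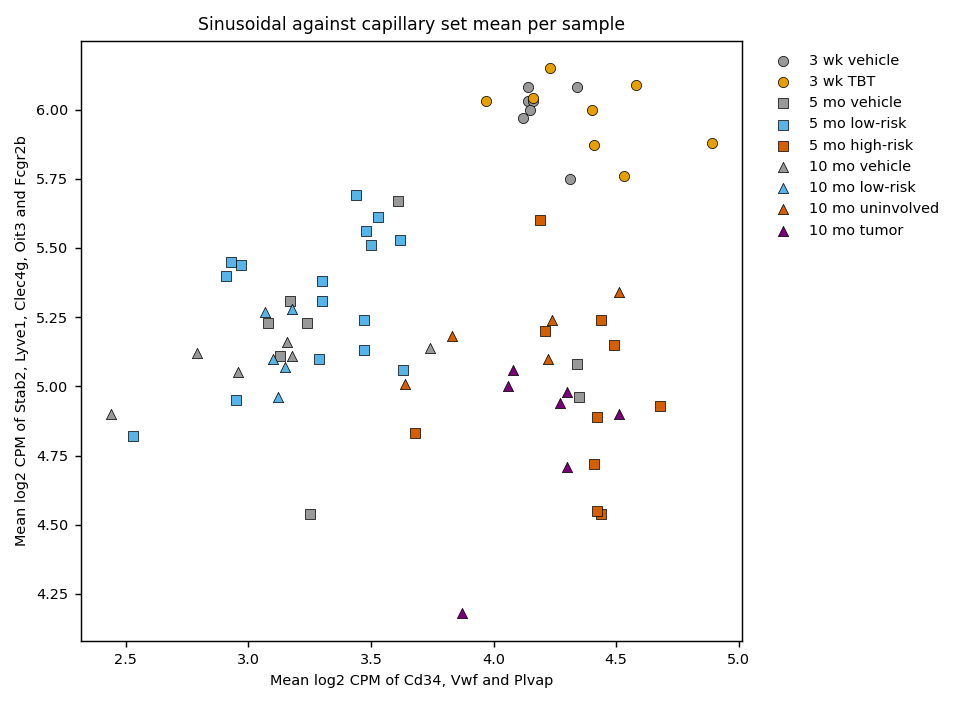
Mean log2 CPM of the capillary genes (horizontal) against that of the sinusoidal genes (vertical) for each sample, coloured by group and shaped by age. The 3-week livers lie at the top right. High-risk livers of 5 months, uninvolved livers and tumors lie to the right of low-risk livers, and vehicles 4 and 6 of 5 months lie among them at 4.34 and 4.35 on the horizontal axis.

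At 10 months the contrast was 2.03 ± 0.37 (SD, n = 6) in vehicles, 2.01 ± 0.15 (SD, n = 5) in low-risk livers, 1.08 ± 0.26 (SD, n = 5) in uninvolved livers and 0.63 ± 0.27 (SD, n = 7) in tumors. All 5 uninvolved livers lay below every low-risk liver, and 5 of 7 tumors below every uninvolved liver. At 3 weeks it was 1.8 ± 0.17 (SD, n = 7) in vehicles and 1.58 ± 0.36 (SD, n = 8) in TBT livers, which overlapped. The sinusoidal mean in uninvolved liver was 5.17 ± 0.13 against 5.14 ± 0.14 in low-risk liver (SD, n = 5 each), while the capillary mean was 4.09 ± 0.35 against 3.13 ± 0.04. The separation of uninvolved livers rested on Cd34: the difference from low-risk livers was -0.93 with it and -0.06 without it, and -0.95 and -0.06 against vehicles. For tumors against vehicles it was -1.41 with and -0.55 without Cd34.

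Other genes of the vessel wall were read from lists of general knowledge, which leave out the 10 members. In 5-month high-risk against low-risk livers, the sinusoidal list of 9 tested genes had 0 higher and 4 lower, with a median of -0.31, where 38.9% of all genes were called and 18.5% were lower. Ehd3, an endocytosis protein, fell by 1.01 (SE 0.14, adjusted p = 1.46e-06) and Dnase1l3, a secreted nuclease, by 0.89 (SE 0.20, adjusted p = 0.000509). The capillary and continuous list had 3 higher and 1 lower of 9, with a median of 0.52, which is also near the share of all genes called. Esm1, a proteoglycan of endothelial tip cells, rose by 3.21 (SE 0.46, adjusted p = 1.56e-06), from 0.687 ± 0.571 (SD, n = 16) to 6.30 ± 2.07 normalized CPM (SD, n = 10) without overlap. Ly6a, which many stem and endothelial cells carry, rose by 1.66 and the water channel gene Aqp1 fell by 0.76.

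All 8 vascular basement membrane genes rose at 5 months, where 20.3% of all genes were higher, with a median of 0.93 against -0.01 for all genes. Nid1, the linker protein nidogen, went from 30.7 ± 7.21 (SD, n = 16) to 98.5 ± 36.2 normalized CPM (SD, n = 10), a log2 difference of 1.65 (SE 0.16, adjusted p = 6.41e-09). Col4a2, a chain of type IV collagen, rose by 1.39 (SE 0.15, adjusted p = 6.17e-08), and neither gene overlapped between groups. Stellate cells make these proteins too, and their markers rose beside them as given above.

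Of 16 tested genes of VEGF, angiopoietin and Notch signalling, 7 rose and 4 fell, with a median of 0.27. Of all genes 20.3% were higher and 18.5% lower. Vegfa, the ligand of Kdr, fell by 0.71 (SE 0.12, adjusted p = 2.23e-05) and its co-receptor Nrp1 by 1.12 (SE 0.18, adjusted p = 7.58e-06). Angpt1, a ligand of Tek, rose by 1.42 (SE 0.28, adjusted p = 0.000103) and the Notch ligand Jag1 by 0.61. Tek itself, which is also on the general endothelial list, fell by 0.51, as did the phosphatase Ptprb of that list by 0.45, while the TGF-beta co-receptor Eng rose by 0.25. Of 6 angiocrine factors, which endothelium sends to hepatocytes, Wnt2 fell by 1.19 (SE 0.25, adjusted p = 0.000238), Bmp2 fell by 0.68 and Hgf rose by 0.51, with a list median of -0.32. With 6 genes, and 38.9% of all genes called, these calls cannot be read as particular to the list.

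**Figure D4:**
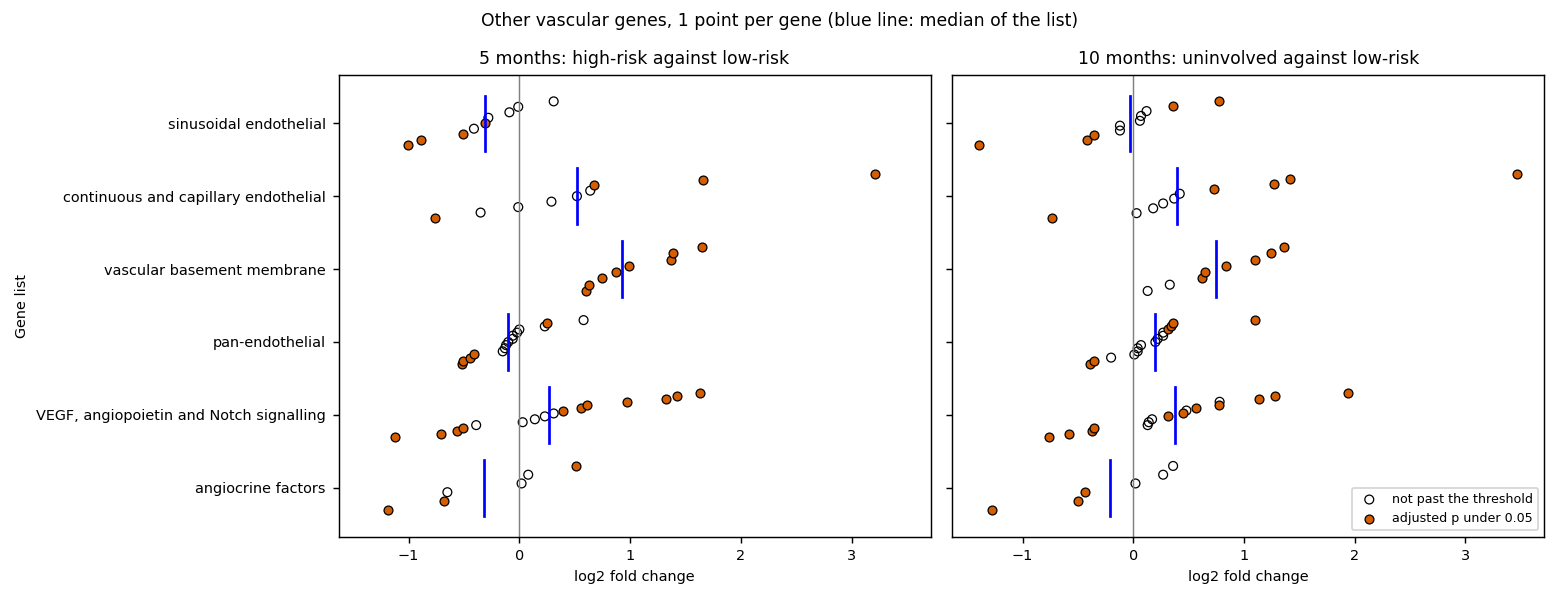
Log2 differences of the genes of each vascular list in 5-month high-risk against low-risk and 10-month uninvolved against low-risk livers, with 1 point per gene, filled for an adjusted p under 0.05, and a blue line at each list's median. All 8 basement membrane genes lie above 0 at both ages, and the sinusoidal genes lie around medians of -0.31 and -0.03.

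In uninvolved against low-risk livers at 10 months, the sinusoidal list had 2 higher and 3 lower of 10, with a median of -0.03 against 0.05 for all genes, and 52.4% of all genes were called. Of the 6 endothelial lists, only those of basement membrane and signalling had a larger share called than that. Ehd3 fell by 0.42 (SE 0.10, adjusted p = 0.00215) and Mrc1, the mannose receptor, by 0.35, while Gpr182 rose by 0.36 and Flt4, the VEGF-C receptor, by 0.77. The capillary and continuous list had 4 higher and 1 lower of 10, with a median of 0.39. Esm1 rose by 3.47 (SE 0.35, adjusted p = 9.59e-07) from 0.70 ± 0.341 to 7.81 ± 2.95 normalized CPM (SD, n = 5 each), Ly6a rose by 1.42 and Aqp1 fell by 0.73. Of the basement membrane genes 6 of 8 rose, with a median of 0.74, among them Lamb1 by 0.84 and Lama4 by 0.65.

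The signalling list at 10 months had 7 higher and 4 lower of 16, where 27.7% of all genes were higher and 24.7% lower. Nrp1 fell by 0.76 and Nrp2 by 0.58, while Angpt2, a context-dependent Tek ligand, rose by 1.14 and Notch1 by 0.57. The general endothelial list had 4 higher and 2 lower of 15: Ecscr rose by 1.10 and Eng by 0.36, and Tek fell by 0.35 and the tight junction gene Cldn5 by 0.39. Of the angiocrine factors 3 of 6 fell, Wnt2 by 1.28 (SE 0.19, adjusted p = 4.27e-05) and Bmp2 by 0.50 among them.

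Across the 72 samples and 9762 genes averaging 5 CPM or more, the genes whose log2 levels followed the mean of the sinusoidal genes most closely were Mrc1 (Pearson's r = 0.881), Tek (0.852), Cdh5 (0.851), Gpr182 (0.838) and Tspan7 (0.815). After group means were removed these were 0.785, 0.688, 0.691, 0.582 and 0.465. The mean of the capillary genes was followed most closely by Fbln2 (0.924), Col6a1 (0.917), Col6a3 (0.915), Fbln5 (0.914) and Bcam (0.912), or 0.737, 0.743, 0.709, 0.716 and 0.715 within groups. The leading genes of the capillary mean were thus matrix and adhesion genes, 4 of 5 of them fibulins or collagen VI chains. The samples share groups, batches and depth, and the coefficients are a description.

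The members did not vary as fixed sets. Within groups, Stab2 and Kdr had r = 0.85 over the 72 samples, Oit3 and Kdr 0.813 and Stab2 and Oit3 0.714. Lyve1 correlated with the other sinusoidal genes at -0.211 to 0.162. The 3 capillary pairs lay between -0.095 and 0.301, so Cd34, Vwf and Plvap varied largely apart from each other within groups.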

How the data were processed

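Liver RNA was measured in 75 libraries. Libraries were of the Illumina TruSeq stranded total RNA type, from DNase-treated RNeasy extracts, per the labels' protocols. Trim Galore, HISAT2, featureCounts and the build mm10 are named in the submitters' processing notes. The deposited table gives raw-scale integer counts for each gene, and per the file name the authors adjusted them between batches with ComBat-seq. Whether that adjustment protected the groups is not given in the sources used here. Such an adjustment can alter the spread and the differences between groups at 5 months, where batches were mixed.

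Groups follow the labels. A pair of 3-week vehicle libraries of mouse 3 was summed, as were uninvolved libraries 3 and 6, whose counts were the closest of any pair within a group (chi-square 3.885 per degree of freedom over 14207 genes, against at least 15.3 in the next 5 closest pairs by the SD of the log2 ratio). That left 72 samples. Tests used edgeR 4.0.16 under R 4.3.3 (TMM, filterByExpr, robust quasi-likelihood F tests, Benjamini-Hochberg adjustment over all genes, threshold 0.05). All non-tumor groups of 1 age entered a common fit, to which batch was added at 5 months. The tumor fits held tumors and either uninvolved livers or vehicles, and the age fit held vehicles of batch 1. Each SE was derived from the F statistic. The contrast of sinusoidal and capillary genes used log2 CPM with a prior count of 2. Each member called in a comparison is named there, and members that did not pass are named only in part. The plot of log2 differences shows all 10 in every comparison. List genes are named by the 2 smallest adjusted p per direction at 5 and at 10 months. Other genes were named after their values were seen. Members and lists were chosen with earlier results of these data known.

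A tumor and an uninvolved liver with the same number in their titles were taken as 1 mouse, which the labels do not state in words. Deviations from group means correlated at -0.172 to 0.616 over 6 such pairs, with uninvolved libraries 3 and 6 kept apart, and the correlation was above 0.1 in 1 pair, that of number 7. Simulated counts with 200 genes changed by 1 on the log2 scale were fitted in 5 designs of 13855 to 16172 genes. There edgeR recovered 124 to 149 with 2 to 8 false calls, and DESeq2 1.42.0 recovered 144 to 162 with 16 to 35. Alternatives included DESeq2, RLE size factors, a fit without the low-count filter, other fits and batches, replicate blocks, leaving out samples and a prior count of 0.5. Motifs were searched in the 250 bases before each RefSeq start.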

Additional observations from a re-analysis of the deposited data

Results flagged for a closer look

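In all, 88 combinations of a group with a gene, or with the contrast of sinusoidal and capillary genes, were examined for a sample far from the others. Of these, 4 had one, and chance gives about 1 in 20. Lyve1 was 6.88 normalized CPM in tumor 3, below the other 6 tumors, which ran from 12.6 to 19.3. Oit3 was 27.3 in 10-month low-risk liver 2, below the other 4 at 34.5 to 36.3. Plvap was 44.4 in the summed sample of uninvolved livers 3 and 6, above the other 4, which reached 26.9. The contrast of sinusoidal and capillary genes was 1.44 in 3-week vehicle 1, the lowest of 7.

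The vehicle library of 10 months that is labelled as a tumor lay above all 6 vehicles of that age in 4 genes. Its levels were 16.02 normalized CPM for Lyve1, 52.9 for Fcgr2b, 27.0 for Pecam1 and 10.2 for Cd34. Of these, Lyve1 and Cd34 lay within the range of the 7 TBT tumors, as did Pecam1, and Fcgr2b lay above it. In the other 6 genes it lay below all 6 vehicles: Stab2 was 71.8 normalized CPM, Clec4g 23.1, Oit3 18.4, Kdr 58.3, Vwf 9.46 and Plvap 21.96. Vwf and Plvap lay below all 7 TBT tumors too. It is a single library of 11.5 M counts with a mitochondrial share of 14.06%, which put it among the 6 deviating libraries, and these differences were not tested.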

How the results depend on the processing

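Over the member results, 662 recomputed values kept their direction and their side of the threshold. A further 51 lost and 27 gained a call, and 32 changed sign. Where no member was called in a comparison, only the members with the lowest and the highest log2 difference entered this tally. The sign changes listed below are those of the tally. At 5 months, batch 1 alone called 1 of 10 members for high-risk against low-risk livers. For high-risk against vehicle livers (4 members called), batch 1 alone gave 0, the fit of both groups only 1 and no filter on low counts 2. Leaving out a sample gave 3 to 7 members for uninvolved against low-risk and 0 to 2 for tumor against uninvolved livers. Uninvolved against vehicle livers gave 3 without the filter and 2 once the tumor-labelled library was counted as a vehicle. Tumor against uninvolved livers gave 2 with libraries 3 and 6 apart. Vehicles of 10 against 5 months gave 3 with DESeq2 (Cd34 and Plvap added) and 2 without the deviating libraries. Without Vwf the contrast of sinusoidal and capillary genes was -1.27 for uninvolved against low-risk and -1.34 against vehicle livers, from -0.93 and -0.95. Without Cd34, an alternative chosen after seeing the data, it was -0.06 in both, -0.70 for high-risk against low-risk, -0.38 for high-risk against vehicle and -0.55 for tumor against vehicle livers.

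With a replicate block on shared numbers, high-risk against vehicle livers called 0 members over 3 shared numbers, and the mouse block called 0 over 4 pairs and 1 over 6 pairs of tumors and uninvolved livers. For uninvolved against vehicle livers it called 5 members, but lost Cd34 (2.01, adjusted p = 0.0684) and Pecam1 and gained Oit3 and Kdr. For tumors against vehicles it called 7 and lost Pecam1 and Kdr, and it called 0 for both other vehicle comparisons that could be blocked. Outside the tumor pairs, samples with the same number have different codes in their titles. Sign changes under a block were Stab2 0.00, Lyve1 -0.09, Pecam1 -0.02 and Plvap 0.14 for high-risk against vehicle, Fcgr2b -0.12, Pecam1 -0.01 and Plvap -0.26 for uninvolved against vehicle, and Lyve1 0.10, Pecam1 0.15 and Plvap 0.20 (4 pairs) and Cd34 -0.09 (6 pairs) for tumor against uninvolved livers.

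The other sign changes were of small differences that had not passed. Single batches gave Pecam1 -0.01 and Plvap 0.06 against low-risk and Pecam1 -0.03 against vehicle livers at 5 months. Leaving out a sample gave -0.06 to 0.03 for Fcgr2b and -0.25 to 0.03 for Plvap (uninvolved against low-risk), -0.13 to 0.15 for Plvap (uninvolved against vehicle) and -0.02 to 0.31 for Lyve1 (low-risk against vehicle). For tumor against uninvolved livers it gave -0.09 to 0.09 for Pecam1, -0.15 to 0.15 for Cd34 and -0.08 to 0.18 for Plvap. Separate libraries 3 and 6 gave Plvap 0.05 (uninvolved against low-risk) and Cd34 0.00 (tumor against uninvolved). No filter gave Fcgr2b -0.01 against vehicle, and Pecam1 0.00 and Plvap 0.00 in tumors. Counting the tumor-labelled library as a vehicle gave Fcgr2b -0.07 for uninvolved and Lyve1 -0.10 for low-risk livers against vehicles. The cause was not tested. Depth limits Cd34, with 6 deposited counts in the poorest low-risk library.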
